A study of Rattus norvegicus with 6 samples.

Results

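The genes described here build, bind and cut the extracellular matrix of the rat retina: collagens, laminins, nidogens, proteoglycans, matrix glycoproteins, matrix metalloproteinases (MMPs) and their tissue inhibitors (TIMPs). They were found by symbol, ignoring case, in a table of gene levels, and 100 rows with 97 different symbols matched, of 19623 symbols in all. The study sequenced total RNA from neural retina at postnatal day 60, from 6 samples in 3 groups of 2. The first group was Long Evans rats, a pigmented strain with a normal retina, with sham surgery. The second was Royal College of Surgeons (RCS) rats, whose photoreceptors degenerate, with the same sham surgery. The last was RCS rats with human neural progenitor cells (hNPCs) injected under the retina. Surgery fell on postnatal day 21, sham eyes received carrier medium, and only the grafted part of the retina, or its counterpart in sham eyes, was taken. The table holds 1 value per gene and names no sample, so it describes 1 library or 1 pool of rat retinal RNA. Genes are compared with each other below, and no group is compared with another. No strain or graft effect can be read from any value.

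The matrix of the retina is mostly arranged in thin sheets. Basement membranes, which are networks of type IV collagen and laminin tied together by nidogen and the heparan sulphate proteoglycans perlecan and agrin, line the vitreous surface of the retina, its blood vessels and the pigment epithelium. Fibrillar collagens form the ropes of sclera, skin and bone, and in the eye type II and type XI collagen, decorated by type IX, form the fibrils of the vitreous gel. Between neurons the matrix is instead built from hyaluronan, the lectican proteoglycans and tenascins. MMPs cut these proteins and TIMPs block the MMPs.

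The level of a gene is given in FPKM, that is fragments scaled to transcript length and to the mapped total, which allows genes of different length to be compared. The bracketed interval after a value is the confidence interval the authors deposited, or the computed one for a sum of rows, and it covers counting error only. Together the 97 genes came to 0.203% of all FPKM in the table, with a median of 1.16 FPKM against 3.17 FPKM for all symbols. Of the 97, 52 reached 1 FPKM (53.6%), against 61.0% of all symbols, 13 reached 10 FPKM, and 8 were listed at 0. The intervals imply 25276 fragments behind these genes, of 6124332 for the table. In bulk RNA a low level can come from few cells of a type or from little RNA per cell, and these cannot be told apart.

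**Figure D1:**
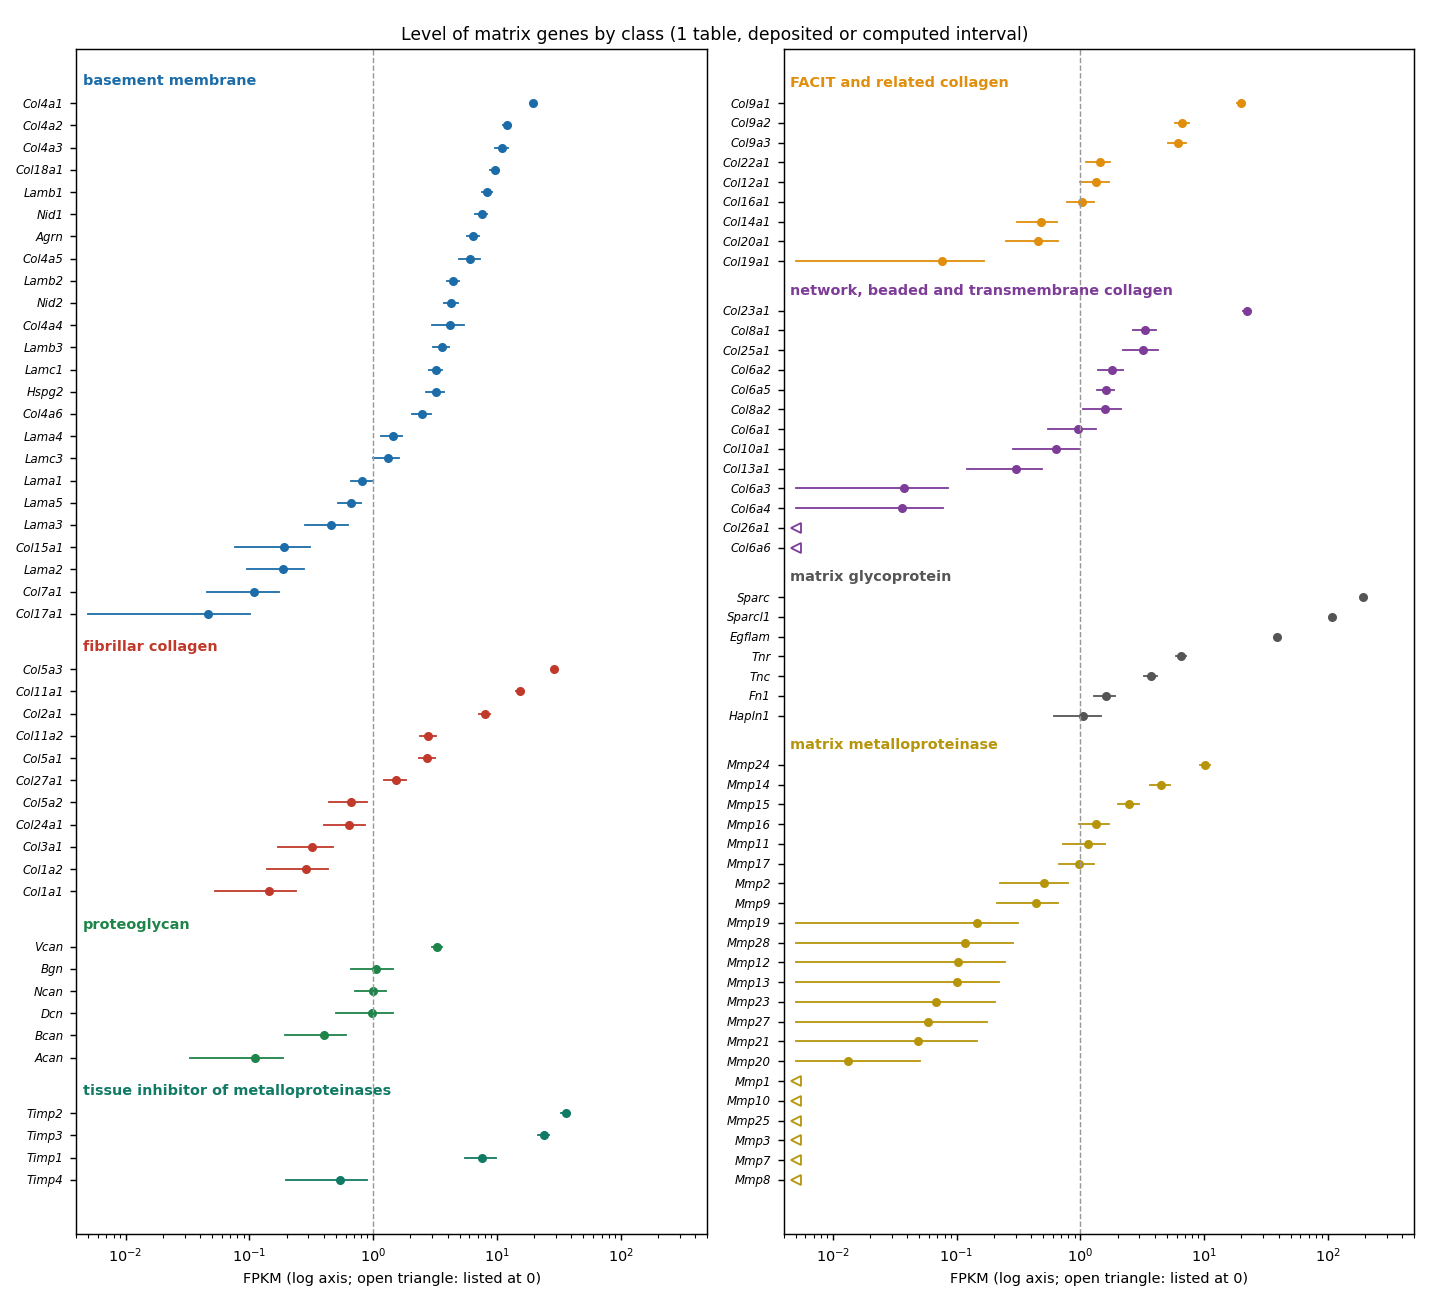
Level of the matrix genes by class, in FPKM on a log axis (all but 1 of the 97 are drawn), with the deposited interval (computed for a sum of rows) as a line; the dashed line marks 1 FPKM and open triangles mark genes listed at 0. Levels run from 0 to the 193 FPKM of Sparc, and all 6 type IV collagen genes lie above 1 FPKM while the type I and III collagen genes lie below it.

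Among the structural classes, basement membrane genes had a higher median level than fibrillar collagens and proteoglycans. At 1 FPKM or more were 17 of 25 basement membrane genes (68.0%, median 3.21 FPKM), near the 61.0% of all symbols. Fibrillar collagens were also near that share, with 6 of 11 genes (54.5%, median 1.53 FPKM), and 2 of 6 proteoglycan genes reached 1 FPKM (median 0.986 FPKM). These differences between classes were not tested. The basement membrane median was thus 2.10 times the fibrillar and 3.26 times the proteoglycan median. By summed FPKM the classes stood at 111, 61.4 and 6.82. These sums run over 25, 11 and 6 genes, so they also follow class size. Divided by those numbers, the fibrillar class stands above the basement membrane class, the reverse of the order of their medians. The bars by class show that the matrix glycoproteins, all 7 of which reached 1 FPKM, summed to 352 FPKM and held 50.6% of the FPKM of the 97 genes. Of the 22 MMP genes, 5 reached 1 FPKM.

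**Figure D2:**
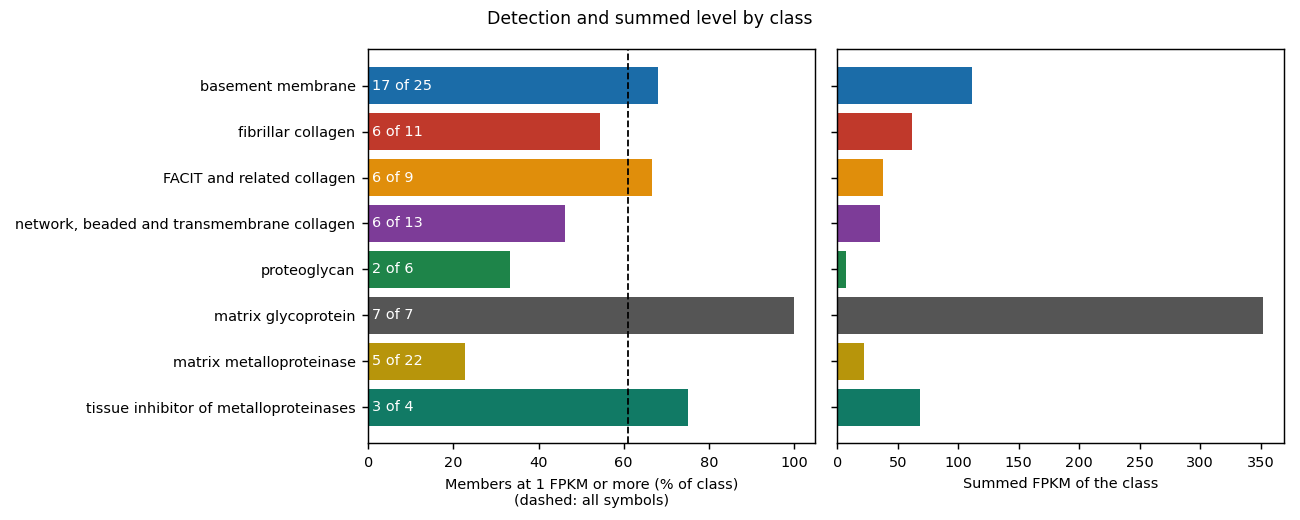
Left, the percentage of each class at 1 FPKM or more, with the counts in the bars and the 61.0% of all symbols as a dashed line; right, the summed FPKM of each class. Matrix glycoproteins have the longest bars in both panels, at 7 of 7 genes and 352 FPKM, and MMPs have the lowest share, at 5 of 22.

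Type IV collagen, the network former of basement membranes, was the leading basement membrane family. All 6 chains were above 1 FPKM. Col4a1 was at 19.4 FPKM (18.4 to 20.4) and Col4a2 at 12.02 FPKM (11.1 to 12.9). These chains assemble into the trimer found in nearly every basement membrane. Col4a1 was 1.62 times Col4a2, with a 95% counting interval of 1.48 to 1.77. Col4a3, Col4a4 and Col4a5, whose chains form the trimer that is lost in Alport syndrome, were at 10.9 FPKM (9.65 to 12.2), 4.19 FPKM (2.995 to 5.39) and 6.11 FPKM (4.98 to 7.24). Col4a6, which lies next to Col4a5 on the X chromosome, was at 2.50 FPKM (2.07 to 2.93), and the ratio of Col4a5 to Col4a6 was 2.44 (1.91 to 3.13).

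The value of Col4a3 depends on how its rows are joined, since the symbol sits on 2 rows. One row, chr9:88104687-88232032 in build rn5, was at 6.54 FPKM (5.87 to 7.20). The other, chr9:90596928-90614325, was at 4.38 FPKM (3.30 to 5.47). Among named rows, both are followed by a row named Mff, the first coming after Col4a4 and the second after Fam124b. The implied fragment numbers of the rows were 387.5 and 65.5, neither of them whole, and they sum to 453. An FPKM of 1 corresponds to 59.3 implied fragments in the first row and to 14.9 in the second, so the second row is the shorter model. In the RefSeq gene order of assembly GRCr8, Col4a3 is a single gene between Col4a4 and Mff. Pooled by length in place of the sum, Col4a3 stood at 6.10 FPKM. Col4a3 was 2.60 times Col4a4 (1.92 to 3.52) by the sum and 1.56 times (1.16 to 2.10) by its higher row. The model of Col4a4 was shorter than both Col4a3 rows, at 11.7 implied fragments per FPKM. The model of Col4a5, at 19.2, was likewise shorter than that of Col4a6, at 53.1. The ratios of these pairs thus compare models of unlike length, and the effect of this on the ratios was not tested.

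Both leading type IV pairs lie head to head. In the deposited table the rows of Col4a2 and Col4a1 on chromosome 16 are 663 bases apart, and those of Col4a4 and Col4a3 are 567 bases apart. The RefSeq windows of assembly GRCr8 start Col4a1 on the plus strand 76 bases from the start of Col4a2 on the minus strand, and leave 412 bases between Col4a3 and Col4a4. The sequences between these starts are shown because each pair shares them, the whole of the first (chr16:84885521-84885596, plus strand) and the 250 bases next to Col4a3 of the second (chr9:91323740-91323989, plus strand). They are printed 5′ to 3′. Capitals mark any match, on either strand, to the core TATAAA of the TATA box, to the CCAAT of the CCAAT box, to the GC box GGGCGG or to the AP-1 element TGAGTCA. Matches are a description of the letters and not of binding.
Col4a1 to Col4a2: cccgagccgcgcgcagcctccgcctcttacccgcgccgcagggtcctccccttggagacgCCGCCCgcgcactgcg
Col4a3 upstream: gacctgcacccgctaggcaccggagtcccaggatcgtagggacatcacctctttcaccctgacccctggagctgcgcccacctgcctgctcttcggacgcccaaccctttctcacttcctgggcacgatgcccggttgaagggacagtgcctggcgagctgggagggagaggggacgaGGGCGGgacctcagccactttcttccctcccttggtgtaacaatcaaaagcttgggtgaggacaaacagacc
Each of these stretches holds 1 GC box match and none of the other 3 motifs. The first stretch, at 76 bases, is shorter than the windows of 250 bases counted next, so their shares do not describe it directly. Among 33469 RefSeq windows of 250 bases before a start, of which a gene can have several, 30.5% hold the GC box, 34.0% the CCAAT box, 12.9% the TATA box and 4.05% the AP-1 element.

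The laminins, cross-shaped trimers of an alpha, a beta and a gamma chain, were uneven by chain type. The 3 beta genes were all above 1 FPKM: Lamb1 was at 8.35 FPKM (7.64 to 9.07), Lamb2 at 4.44 FPKM (3.92 to 4.96) and Lamb3 at 3.57 FPKM (3.03 to 4.12). Lamb2, the beta chain of synaptic basement membranes, was 0.532 times Lamb1 (0.462 to 0.613). Of the gamma genes, Lamc1 was at 3.21 FPKM (2.84 to 3.59) and Lamc3 at 1.31 FPKM (1.00 to 1.61). Lamc1 was 2.46 times Lamc3 (1.90 to 3.17).

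The alpha chains, which carry the main cell-binding domains, were the low arm of the family. Lama4, a vascular alpha chain, was the 1 of 5 above 1 FPKM, at 1.44 FPKM (1.15 to 1.72). Lama1, Lama5, Lama3 and Lama2 lay between 0.186 and 0.817 FPKM, and the ratio of Lama5 to Lama1, 0.806, had an interval that held 1 (0.608 to 1.07). Summed, the alpha genes came to 3.55 FPKM and the beta genes to 16.4 FPKM. Lamb1 was 5.81 times Lama4 (4.70 to 7.18), a pair picked with the values known.

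The linkers and heparan sulphate carriers lay between these extremes. Nid1, the main nidogen, was at 7.53 FPKM (6.70 to 8.36) and 1.76 times Nid2 (1.49 to 2.08), itself at 4.27 FPKM. Agrn, which encodes agrin, was at 6.47 FPKM (5.72 to 7.22) and Hspg2, which encodes perlecan, at 3.20 FPKM (2.68 to 3.71). Col18a1, a basement membrane collagen whose cleaved end is endostatin, was at 9.64 FPKM (8.83 to 10.4). Its relative Col15a1, best known from muscle and vessel basement membranes, was at 0.191 FPKM (0.0760 to 0.307), so Col18a1 was 50.3 times higher (27.7 to 91.4). Lowest in the basement membrane class were Col7a1, the anchoring fibril collagen, at 0.109 FPKM and Col17a1, of hemidesmosomes, at 0.0466 FPKM.

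Within the fibrillar class, the vitreous type and a minor type V chain stood above the collagens of general connective tissue. Col5a3 was the highest collagen of all, at 29.0 FPKM (27.7 to 30.2), and 10.6 times Col5a1 (9.09 to 12.3), a pair picked with the values known. Col11a1 was at 15.4 FPKM (14.2 to 16.6) and Col2a1, the main vitreous and cartilage collagen, at 7.98 FPKM (7.21 to 8.76). Col11a1 was 5.49 times Col11a2 (4.68 to 6.44). Col5a1 was at 2.74 FPKM and Col5a2, which joins it in the usual type V trimer, at 0.668 FPKM.

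The collagens that dominate sclera, tendon and skin were near the bottom. Col1a1 was at 0.145 FPKM (0.0531 to 0.236), Col1a2 at 0.286 FPKM (0.138 to 0.434) and Col3a1 at 0.321 FPKM (0.169 to 0.472). They rest on an implied 10, 15 and 18 fragments. The ratio of Col1a1 to Col1a2 was 0.505, with an interval that held 1 (0.227 to 1.12). Leading Col5a3 and Col11a1 made up 72.2% of the summed FPKM of the class, so its sum says little about its other 9 genes.

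Type IX collagen, a fibril-associated collagen that coats the type II fibrils of the vitreous and of cartilage, was present in all 3 chains. Col9a1 was at 19.96 FPKM (18.4 to 21.5), Col9a2 at 6.67 FPKM (5.78 to 7.56) and Col9a3 at 6.13 FPKM (5.09 to 7.17). Col9a1 was 2.99 times Col9a2 (2.57 to 3.48), while Col9a3 and Col9a2 had a ratio of 0.919 with an interval that held 1 (0.744 to 1.14). The other 6 genes of this class, among them Col12a1 and Col14a1, ran from 0.0766 to 1.43 FPKM. Col19a1, which lies 13583 bases from Col9a1 in the table, was the lowest, with an implied 3 fragments.

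Among the remaining collagens Col23a1, a transmembrane collagen, stood apart at 22.2 FPKM (20.5 to 23.9). Col8a1, a short-chain network collagen also made by endothelium, was at 3.35 FPKM (2.65 to 4.05), and Col25a1, a transmembrane collagen of neurons, at 3.22 FPKM (2.21 to 4.23). Type VI collagen, the beaded filament of connective tissue, was low in most chains. Col6a2 was at 1.79 FPKM (1.38 to 2.21), Col6a1 was 0.529 times that (0.331 to 0.846), and Col6a3, which completes the common trimer, was at 0.0379 FPKM. Col6a5 was at 1.62 FPKM (1.35 to 1.88), beside Col6a4 at 0.0363 FPKM and Col6a6 listed at 0. Col26a1 was also listed at 0.

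**Figure D3:**
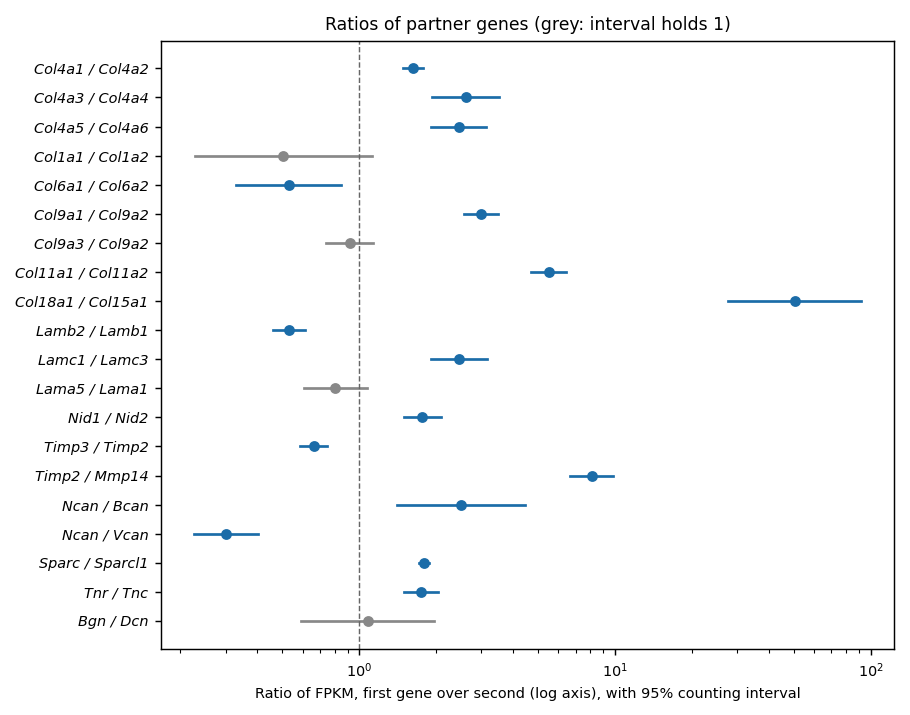
Ratio of FPKM in 20 pairs of partner genes, first gene over second, on a log axis; points are ratios, lines 95% counting intervals, and grey marks the 4 pairs whose interval holds 1. The widest step is Col18a1 over Col15a1 at 50.3, and Col4a1 over Col4a2 is at 1.62.

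The highest matrix genes encode secreted glycoproteins. Sparc, a collagen-binding counter-adhesive protein, was at 193 FPKM (187 to 198), rank 139 of 19623 symbols. Sparcl1, or hevin, a relative that bridges synaptic adhesion proteins, was at 108 FPKM (104 to 112), rank 320. Sparc was 1.79 times Sparcl1 (1.71 to 1.87). These 2 genes alone held 43.2% of the FPKM of the 97. Without them the share of the table fell from 0.203% to 0.115%. The 250 bases before the start of Sparc (chr10:40038817-40039066, minus strand, GRCr8) are shown because Sparc leads the set, and they hold none of the 4 motifs.
Sparc upstream: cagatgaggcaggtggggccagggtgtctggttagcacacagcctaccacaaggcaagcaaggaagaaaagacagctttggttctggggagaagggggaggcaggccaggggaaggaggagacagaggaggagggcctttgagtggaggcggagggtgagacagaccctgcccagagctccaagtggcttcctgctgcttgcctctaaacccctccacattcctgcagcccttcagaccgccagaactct

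Egflam came next, at 38.7 FPKM (36.8 to 40.6). It encodes pikachurin, which sits in the cleft of the photoreceptor ribbon synapse and binds dystroglycan. Dag1, the gene of dystroglycan, was at 17.4 FPKM (15.9 to 18.9), 0.449 times Egflam (0.407 to 0.495), a pair picked with the values known. Tnr, the tenascin of perineuronal matrix, was at 6.51 FPKM (5.91 to 7.10) and 1.74 times Tnc (1.501 to 2.02), which was at 3.74 FPKM. Fn1, which encodes fibronectin, was at 1.61 FPKM (1.30 to 1.91).

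The proteoglycan class, of 4 lecticans, which bind hyaluronan in nervous tissue, and 2 small leucine-rich proteoglycans, had the lowest summed FPKM of the 8 classes. Vcan, or versican, was at 3.28 FPKM (2.97 to 3.60). Ncan, or neurocan, summed to 0.994 FPKM over 2 rows (0.718 to 1.27), 0.303 times Vcan (0.227 to 0.403). Bcan, or brevican, was at 0.398 FPKM (0.192 to 0.603) and Acan, or aggrecan, at 0.111 FPKM (0.0330 to 0.188). Ncan was 2.50 times Bcan (1.41 to 4.44) by the sum, and 1.33 times by its higher row, where the interval held 1 (0.719 to 2.45). The link protein gene Hapln1, which neighbours Vcan on chromosome 2 in the table, was at 1.04 FPKM (0.615 to 1.47). The small leucine-rich proteoglycans Bgn and Dcn, abundant in fibrous tissue, were at 1.06 FPKM and 0.978 FPKM and had a ratio of 1.08 with an interval that held 1 (0.593 to 1.964).

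The highest MMP genes encode membrane-type proteases, but the levels do not divide cleanly by type. Of the 6 genes classed as membrane-type, a grouping drawn with the values known, 4 reached 1 FPKM. Mmp24, a membrane-type protease known from neurons, was at 10.2 FPKM (9.27 to 11.2). Mmp14, the membrane-type collagenase that activates the Mmp2 protein, was at 4.45 FPKM (3.64 to 5.26). Mmp15 was at 2.49 FPKM (2.02 to 2.97), Mmp16 at 1.34 FPKM (0.982 to 1.71), Mmp17 at 0.983 FPKM (0.669 to 1.30), and Mmp25 was listed at 0. The 6 genes summed to 19.5 FPKM, against 2.76 FPKM for the other 16, which include Mmp23, a further membrane-anchored protease, at 0.0676 FPKM.

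Of those 16, the secreted Mmp11, or stromelysin-3, was the one to reach 1 FPKM, at 1.16 FPKM (0.729 to 1.59), and its interval overlapped that of the membrane-type Mmp17. The gelatinases Mmp2 and Mmp9, which degrade type IV collagen, were at 0.508 FPKM (0.226 to 0.790) and 0.438 FPKM (0.212 to 0.664), on an implied 13 and 15 fragments. The remaining 13 were at or below 0.146 FPKM, and Mmp1, Mmp3, Mmp7, Mmp8 and Mmp10 were listed at 0.

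Position sets 9 of these low genes together. Mmp13, Mmp12, Mmp3, Mmp1, Mmp10, Mmp8, Mmp27, Mmp20 and Mmp7 lie in this order within 375120 bases (chr8:5527979-5903099, build rn5). The highest of them, Mmp12, was at 0.102 FPKM, and the 9 summed to 0.275 FPKM. In RefSeq windows of 250 bases, 8 of the 9 hold the TATA box core and 6 hold the AP-1 element. The CCAAT box is in 3 of them and the GC box in 0, and their GC content runs from 36.0% to 48.0%. The windows of Mmp13 (chr8:12782579-12782828, plus strand, GRCr8) and Mmp24 (chr3:164738976-164739225, plus strand, GRCr8) are shown as a clustered, low gene and the highest MMP gene. Capitals mark the same 4 motifs.
Mmp13 upstream: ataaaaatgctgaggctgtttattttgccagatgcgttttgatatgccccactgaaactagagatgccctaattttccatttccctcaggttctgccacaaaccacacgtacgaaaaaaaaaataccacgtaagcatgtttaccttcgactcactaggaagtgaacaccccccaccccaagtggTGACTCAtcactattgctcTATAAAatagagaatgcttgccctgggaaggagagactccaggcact
Mmp24 upstream: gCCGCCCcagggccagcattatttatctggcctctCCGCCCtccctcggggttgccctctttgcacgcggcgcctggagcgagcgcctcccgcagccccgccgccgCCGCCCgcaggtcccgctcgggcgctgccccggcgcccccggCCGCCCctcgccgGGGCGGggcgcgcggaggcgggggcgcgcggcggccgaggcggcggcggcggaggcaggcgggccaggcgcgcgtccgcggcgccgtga
The Mmp13 window holds 1 TATA box core and 1 AP-1 element, and the Mmp24 window holds 5 GC box matches.

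Over all the matrix genes with a RefSeq window (76 of 97, 1 window each), the same letters were counted by level. The TATA box core was in 2 of 40 windows of genes at 1 FPKM or more (5%) and in 14 of 36 below it (38.9%), and among other symbols the shares were 6.04% and 15.4%. The GC box was in 72.5% and 33.3% of the matrix windows, and in 59.9% and 30.0% of the others. The AP-1 element was in 0 of 40 and 8 of 36 matrix windows, and in 2.74% and 5.16% of the others. Of those 14 and 8 genes below 1 FPKM, 8 and 6 are the clustered MMP genes. These shares are a description with no test, since neighbouring family members share ancestry.

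Timp2 and Timp3 stood above every MMP gene, while Timp1 lay below Mmp24 and Timp4 below several MMP genes. Timp2, which both inhibits MMPs and helps Mmp14 activate Mmp2, was at 36.1 FPKM (33.2 to 38.9) and 8.11 times Mmp14 (6.68 to 9.84). Timp3, the inhibitor that binds to matrix and is mutated in Sorsby fundus dystrophy, was at 23.9 FPKM (21.7 to 26.2), 0.663 times Timp2 (0.588 to 0.747). Timp1 was at 7.64 FPKM (5.54 to 9.74) and Timp4 at 0.542 FPKM (0.199 to 0.885). Summed, the TIMP genes were 3.06 times the MMP genes (2.79 to 3.36), and Timp2 and Timp3 held 88.0% of the TIMP sum. Protein amounts and activity were not measured.

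Genes that make, bind and turn over this matrix were read from lists of non-members. Their counts stand beside the 61.0% of all symbols at 1 FPKM or more, and their medians beside 3.17 FPKM for all symbols. At 1 FPKM or more were 17 of 21 collagen processing genes (median 3.29 FPKM). P4hb, a subunit of prolyl hydroxylase and also protein disulphide isomerase, was at 69.1 FPKM, P4ha1, the catalytic subunit, at 27.1 FPKM and the collagen chaperone gene Serpinh1 at 16.9 FPKM, while P4ha3 and Adamts14 were listed at 0. Of 24 receptor genes 16 did (median 1.99 FPKM). The syndecan gene Sdc4 was at 29.9 FPKM, the collagen receptor gene Ddr1 at 24.5 FPKM and Dag1 came next, and Itgb3 was listed at 0. Of 8 hyaluronan and link protein genes 3 did, led by Hyal1 at 8.14 FPKM, Hyal2 at 3.92 FPKM and Hapln4 at 1.70 FPKM, with Hapln2 listed at 0. The hyaluronan synthase genes Has1, Has2 and Has3, named after their values were seen, were at 0.172, 0.245 and 0.609 FPKM. Of 12 matched aggrecanase and MMP regulator genes 8 did: Bsg, which encodes basigin and is also a photoreceptor and pigment epithelium gene, was at 390 FPKM, the MMP inhibitor gene Reck at 11.1 FPKM and Adamts1 at 7.57 FPKM. Plau was listed at 0.

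Markers of the cells that could supply matrix RNA were present at very different levels, and their part in the values above was not tested. The marker counts at 1 FPKM or more stand beside the 61.0% of all symbols. All 8 rod markers lay above 150 FPKM, led by Gnat1 at 6316 FPKM, Prph2 at 2276 FPKM and Sag at 1992 FPKM. All 8 Müller glia markers lay at 27.9 FPKM or more, led by Glul at 617 FPKM, Dkk3 at 318 FPKM and Clu at 250.4 FPKM. Of 8 endothelial markers 6 reached 1 FPKM, from Tie1 at 0.517 FPKM through Pecam1 at 1.91 FPKM, Cldn5 at 3.75 FPKM and Flt1 at 7.44 FPKM to Kdr at 52.2 FPKM. Of 7 pericyte and smooth muscle markers 4 did, led by Rgs5 at 27.1 FPKM, Tagln at 2.93 FPKM and Pdgfrb at 2.34 FPKM. These lists sit beside the type IV collagen and laminin values.

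Markers of tissue around the retina were uneven, and their counts also stand beside the 61.0% of all symbols. Of 8 fibroblast and scleral markers 4 reached 1 FPKM: Mgp was at 29.1 FPKM, Ogn at 22.9 FPKM over 2 rows, and Fmod at 10.1 FPKM, whereas Lum was at 0.213 FPKM and Kera and Dpt were listed at 0. They sit beside Col1a1, Col1a2 and Col3a1, all below 0.33 FPKM. Of 8 pigment epithelium markers 6 did, led by Ttr at 152 FPKM, Rlbp1, which Müller glia share, at 114 FPKM and Rpe65 at 20.7 FPKM. Mitf was at 1.62 FPKM, and Tyr and Best1 were at 0.471 and 0.270 FPKM. These uneven markers sit beside Timp3, which the pigment epithelium is known to make, and its source here was not tested. All 6 lens markers reached 1 FPKM, led by Cryaa at 427 FPKM, Crybb2 at 118 FPKM and Bfsp2 at 4.59 FPKM. The lens markers Bfsp1, Lim2 and Mip were far below the 2 crystallin genes, at 2.74, 1.81 and 1.60 FPKM. Of 5 astrocyte markers 3 reached 1 FPKM, led by S100b at 23.6 FPKM, Gfap at 8.45 FPKM and Pdgfra at 3.08 FPKM. Pax2 was listed at 0. Of 6 microglia markers 5 did, led by Ctss at 16.6 FPKM, Aif1 at 4.12 FPKM and Csf1r at 3.62 FPKM.

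**Figure D4:**
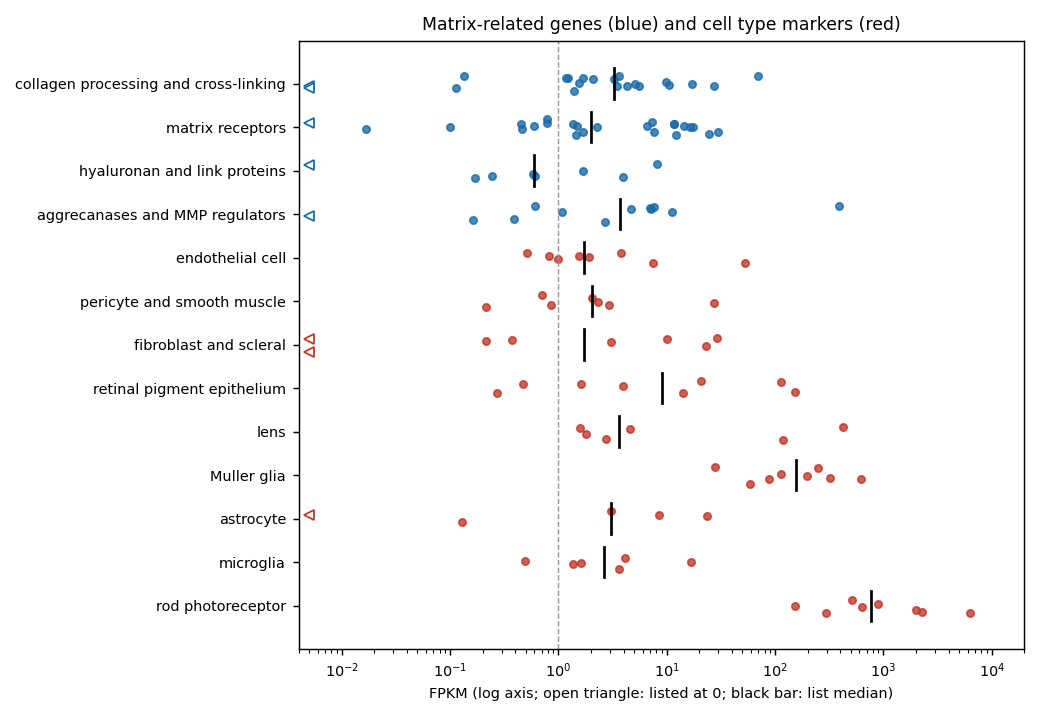
Level of each gene of 4 lists of matrix-related genes (blue) and 9 lists of cell type markers (red), in FPKM on a log axis; black bars are list medians, the dashed line marks 1 FPKM and open triangles mark genes listed at 0. Rod and Müller glia medians, at 761 and 155 FPKM, lie to the right of the others, and the endothelial and fibroblast medians are at 1.73 and 1.72 FPKM.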

How the data were processed

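The authors deposited 1 gene table in the Cufflinks format, per the file headers, with an FPKM and a lower and an upper bound for each of 26406 rows. Cufflinks 2.0.8 and build rn5 are listed in the submitters' processing notes; the aligner, the annotation and the level of the bounds are not given in the sources. No column names a sample, so none was assigned to a group and the 3 group comparisons (limma) were not run.

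FPKM of rows sharing a symbol were summed, ignoring case, with standard errors joined as the root of summed squares. Bounds were read as 2 standard errors per side, which gives an implied fragment number. In rows of up to 200 implied fragments the value was within 0.02 of an integer in 48 of 66 member rows (72.7%) and in 69.6% of all rows; above 200 this reading is an assumption. Ratio intervals (95%) combine relative errors on the log scale and were tested on simulated data. The intervals do not cover spread between animals or libraries.

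Members, classes, lists and pairs were chosen with earlier results of these data known. Named are each class's members at 10 FPKM or more, at least its 3 highest, paired genes and genes listed at 0, and the 3 highest and the zeros of other lists; further genes were chosen after their values were seen. The values of 1 member are not reported here, though it stays in the counts and sums. Promoter windows are from RefSeq, build GRCr8, matched by symbol. Python 3.11.15, numpy 2.4.6, pandas 2.3.3 and matplotlib 3.10.9 were used. Alternatives covered the FPKM minimum, the joining of rows, the status column, symbol case, genes at 0 and the class borders.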

Additional observations from a re-analysis of the deposited data

How the results depend on the processing

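A value was taken as moved when it left its 95% counting interval, or a count when it changed by over 1.5 times. By this rule 55 of 69 recomputed values had not moved. Many of the 69 could not move, however, so this count overstates stability. All 100 member rows had status OK, and classes without genes at 0 cannot change when such genes are dropped. The 69 also include 17 pair ratios of genes on 1 row each. The 52 genes at 1 FPKM or more became 89 at any value above 0 and 23 at a minimum of 5 FPKM. The share of summed FPKM, 0.203%, was 0.207% with the highest row per symbol, 0.200% over rows at 1 FPKM or more, 0.413% by implied fragments, which are not divided by length, and 0.115% without Sparc and Sparcl1 (added after the values were seen). The ratio of basement membrane to proteoglycan medians, 3.26, was 4.27 with the highest row per symbol, which takes 1 of 2 rows from Ncan, and 16.3 by summed FPKM. The ratio of basement membrane to fibrillar medians, 2.10, was 2.93 without Col5a3 (also added). Both ratios stayed above 1 in every alternative run. The summed form, however, compares classes of 25, 11 and 6 genes, and a mean per gene was not among the alternatives. The summed 111 FPKM over 25 genes and 61.4 FPKM over 11 put the fibrillar mean above the basement membrane mean. The order of these 2 classes by median is thus reversed by mean, while the proteoglycan mean stays below both. With the highest row per symbol, 17 of 20 pair ratios could not change, because both of their genes sit on 1 row. The others, which involve Col4a3 or Ncan, all moved. No paired analysis was possible because no column belongs to a sample or replicate. Leaving out replicates and the other pseudocount were therefore not run. Depth limits the low genes: 12 members above 0 have intervals reaching 0.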

Other observations

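Besides Col4a3, 2 other matrix symbols sit on 2 rows. The rows of Mmp28 on chromosome 10 both span 20982 bases in build rn5, and together they hold 2 implied fragments. Those of Ncan on chromosome 16 were at 0.528 and 0.465 FPKM, each followed by a row named Hapln4, whereas the RefSeq gene order of GRCr8 has 1 Ncan and the same neighbour. The separate values of these rows are uncertain. All 97 members matched a symbol of the RefSeq table, and 1 of them, Bgn, is placed on another chromosome there than the chromosome 1 of the deposited table.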
